A study of Mus musculus with 72 samples.

Results

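The miR-29 family was followed through every library of the series as mmu-miR-29a-3p, mmu-miR-29b-3p, mmu-miR-29c-3p and mmu-miR-29c-5p, which are 4 of the 1927 miRNA rows of the deposited count tables. The members were taken by their row names, with earlier results of these data known. The other 3 arms of the miR-29 hairpins are not counted among the members and are reported apart. The tissues were cerebellum of the right side and cortex and striatum of the left side, all from male mice, wild type (WT) or Thap1+/-, and small RNA was sequenced from each. Thap1 encodes a DNA-binding transcription factor, and its human counterpart is the gene of DYT6 dystonia. Mice of both genotypes were naive or had a crush lesion of the sciatic nerve on the right side (1 min, at 12 weeks of age), with tissue taken 12 weeks later. The 3 regions, 2 genotypes and 2 treatments gave 12 groups of 6 libraries, except WT naive cortex, for which 5 of the 6 labelled libraries were analysed, so that 71 of 72 were used. The labels call the libraries of a group biological replicates and give no strain. Libraries are named below by region (CX, STR or CB), genotype (wt or DYT6KO, the authors' column code for Thap1+/-), treatment and a number. Thap1 mRNA is not part of a miRNA count, so the genotype was not checked here.

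Each library held between 7479448 and 12589140 miRNA counts, and all 4 members passed the low-count filter in every region. The region labels were checked with miR-206-3p, listed here as a marker of cerebellum. Its counts per library were 22632 to 36537 in cerebellum, 1244 to 3807 in striatum and 151 to 922 in cortex. Levels are given as CPM (counts per 1000000 counts of a library) after a scaling set within each region. On that scale miR-206-3p lay between 1640 and 5493 CPM in cerebellum, 138 and 411 CPM in striatum and 15.1 and 97.5 CPM in cortex. Let-7 family members and miR-98, counted in 10 rows, took a large and varying part of every library, and their share is given beside the results because a larger share leaves fewer counts for all other miRNAs. All samples were pieces of tissue, so fewer cells of a type and less RNA per cell cannot be told apart.

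A miRNA is cut from a hairpin transcript by Drosha and Dicer, and the retained arm guides Argonaute to messenger RNAs that pair with its seed, the bases near the 5′ end. The 3p arms of the miR-29 hairpins are the guide strands, and they are known to repress collagens and other matrix genes and the DNA methyltransferases Dnmt3a and Dnmt3b. In mouse brain the family rises as neurons mature, restrains pro-apoptotic BH3-only genes in neurons and is enriched in astrocytes. The 5p arms are the passenger strands, which are mostly degraded.

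The mature sequences are shown because the members differ by very few bases, which bears on how reads can be assigned to them. They are RefSeq entries of build GRCm38.p6, written 5′ to 3′ with the seed (bases 2 to 8) in capitals, and all 4 members matched an entry.
mmu-miR-29a-3p: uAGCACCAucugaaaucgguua
mmu-miR-29c-3p: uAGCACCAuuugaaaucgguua
mmu-miR-29b-3p: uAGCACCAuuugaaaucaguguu
mmu-miR-29c-5p: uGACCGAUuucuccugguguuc
The 3 guide arms share the seed AGCACCA, which no other of the 1679 mature names in the table carries. The 5p arm has the seed GACCGAU, which is also found in no other name. Counting positions from 1 at the 5′ end, miR-29a-3p and miR-29c-3p differ by the substitution C10U and by no other base. From miR-29c-3p to miR-29b-3p the substitutions are G18A, U21G and A22U, and miR-29b-3p has 23 bases against 22. A read with an error at position 10, or a count that allows 1 mismatch, can therefore move between miR-29a-3p and miR-29c-3p. How the authors assigned such reads is not given in the sources used here, so the division of counts between these members is uncertain.

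The family comes from 2 pairs of hairpins. On chromosome 6, minus strand, Mir29a lies at chr6:31062660-31062747 and Mir29b-1 at chr6:31063023-31063093, with 275 bases between them. On chromosome 1, plus strand, Mir29b-2 lies at chr1:195037040-195037120 and Mir29c at chr1:195037547-195037634, with 426 bases between them. GENCODE M21 places both chromosome 1 hairpins in an exon of the noncoding gene A330023F24Rik on the same strand, and in exonic sequence of Cd46 on the opposite strand. The 3p arms of Mir29b-1 and Mir29b-2 are identical, so the row of miR-29b-3p is the sum of both loci. Their 5p arms differ and have rows of their own, as does the 5p arm of Mir29a, and these 3 rows are given below as marks of single loci. The Mir29c hairpin, here with both mature arms in capitals, gives 2 of the 4 members.
Mir29c: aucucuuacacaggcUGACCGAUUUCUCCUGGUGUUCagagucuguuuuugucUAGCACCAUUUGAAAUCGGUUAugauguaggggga
The other 5p arms are shown with the seed in capitals because each marks 1 hairpin.
mmu-miR-29a-5p: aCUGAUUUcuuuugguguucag
mmu-miR-29b-1-5p: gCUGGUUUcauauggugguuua
mmu-miR-29b-2-5p: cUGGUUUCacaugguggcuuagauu

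miR-29a-3p was the most abundant member in all 12 groups. As a share of all miRNA counts it stood at 3.25% ± 0.787 (SD, n = 23) in cortex, 3.44% ± 0.727 (n = 24) in striatum and 1.69% ± 0.484 (n = 24) in cerebellum. Its mean level ranked 11th, 11th and 15th among the miRNAs of the 3 regions. The share of miR-29b-3p was 0.860% ± 0.274 in cortex, 0.991% ± 0.347 in striatum and 0.331% ± 0.102 in cerebellum. The share of miR-29c-3p was 0.636% ± 0.196 in cortex, 0.648% ± 0.154 in striatum and 0.381% ± 0.129 in cerebellum. In cortex and striatum miR-29b-3p therefore came above miR-29c-3p, and in cerebellum the means were in the other order. The passenger arm miR-29c-5p was rare, with 45 to 203 counts per library in cortex, 77 to 172 in striatum and 27 to 148 in cerebellum. The miR-29c guide outnumbered its passenger in every group, with group medians of their ratio between 435 and 635. Each read spans a whole mature miRNA, so these levels need no scaling for length, but how well each sequence is captured by the kit was not measured. Together the members made up 4.75% ± 1.23 of cortex counts, 5.08% ± 1.11 of striatum counts and 2.40% ± 0.702 of cerebellum counts, and miR-29a-3p supplied 68.8%, 67.9% and 70.4% of these sums.

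**Figure D1:**
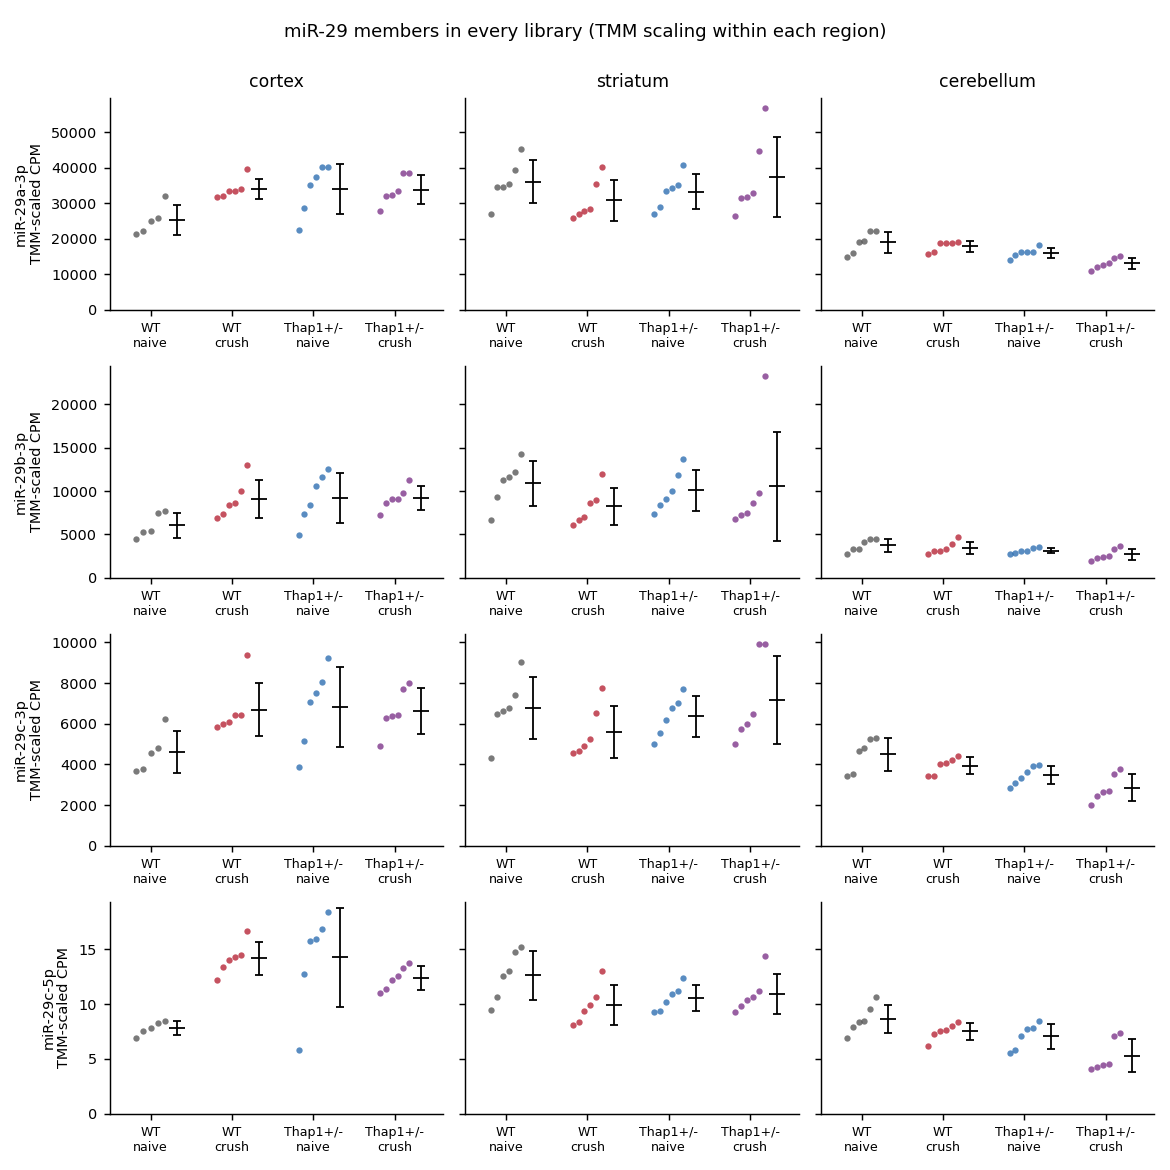
Level of each member in every library, in TMM-scaled CPM, by region and group, with 1 point per library, ordered by level, and the group mean with its SD beside them. In cortex the WT naive group has the lowest mean of all 4 members and CX_DYT6KO_naive_18 is the lowest Thap1+/- point, and in striatum the groups overlap. In cerebellum the Thap1+/- crush group has the lowest mean of miR-29a-3p, with points that overlap both naive groups.

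In cortex all 4 members were lower in naive WT mice than in naive Thap1+/- mice. Levels below are CPM scaled by the trimmed mean of M values (TMM) within a region, and differences are log2 fold changes from edgeR's quasi-likelihood test with its standard error. P-values are adjusted by the Benjamini-Hochberg method over all 549 miRNAs tested in cortex, 575 in striatum or 552 in cerebellum, and a difference is called at an adjusted p below 0.05. The 5 WT naive libraries held miR-29a-3p at 21276, 22086, 24997, 25904 and 32100 CPM, and the 6 Thap1+/- naive libraries spanned 22330 to 40192 CPM with a median of 36359 CPM. The groups overlapped through CX_DYT6KO_naive_18, the lowest Thap1+/- library, and 5 of 6 Thap1+/- libraries lay above the WT mean. The fold change was 0.43 ± 0.13 (adjusted p = 0.0260).

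The other members moved the same way. miR-29b-3p had a median of 5345 CPM in WT naive libraries (range 4479 to 7638) and of 9455 CPM in Thap1+/- naive libraries (4894 to 12570), and its log2 fold change was 0.61 ± 0.20 at an adjusted p of 0.0382. miR-29c-3p had medians of 4544 and 7297 CPM, with ranges of 3674 to 6238 and 3847 to 9225 CPM, and changed by 0.56 ± 0.19 on the log2 scale (adjusted p = 0.0376). The passenger arm miR-29c-5p stood at 6.88 to 8.50 CPM in the 5 WT naive libraries, from 61 to 74 counts each, and at 12.8 to 18.4 CPM in 5 Thap1+/- naive libraries. The sixth, CX_DYT6KO_naive_18, held 5.82 CPM, below every WT library. Its log2 fold change was 0.88 ± 0.18 (adjusted p = 0.00597). So 4 of 4 members were called higher, while 20.2% of all miRNAs tested were called in this comparison, 70 higher and 41 lower. The median log2 fold change was 0.59 over the members and -0.01 over all miRNAs. With library totals alone as the scale 142 miRNAs were called higher and 7 lower, and the medians moved together to 0.81 over the members and 0.20 over all miRNAs.

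This comparison depends on which libraries share the fit. When the 2 naive groups were fitted without the crush groups, 0 of 4 members and 0 of all miRNAs were called, with adjusted p between 0.0614 and 0.0855 and log2 fold changes between 0.47 and 0.91. Without let-7 and miR-98 in the totals miR-29a-3p and miR-29c-5p were called, while miR-29b-3p (0.60, adjusted p = 0.0605) and miR-29c-3p (0.56, adjusted p = 0.0527) were not. Leaving out 1 library left between 1 and 4 members called, and miR-29c-5p was the 1 that remained called when CX_DYT6KO_naive_135, CX_DYT6KO_naive_63, CX_DYT6KO_naive_76, CX_wt_naive_31, CX_wt_naive_67 or CX_wt_naive_96 was left out. Without CX_DYT6KO_naive_16 only 2 members were called. Of all miRNAs 46 to 69 in place of 111 were called without CX_DYT6KO_naive_135, CX_DYT6KO_naive_63, CX_DYT6KO_naive_76, CX_wt_naive_124, CX_wt_naive_31, CX_wt_naive_67 or CX_wt_naive_96, and 216 without CX_DYT6KO_naive_18.

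Crush was followed by higher levels of all 4 members in WT cortex 12 weeks later. miR-29a-3p lay between 31706 and 39597 CPM in the 6 WT crush libraries, with a median of 33405 CPM. Only CX_wt_naive_118, at 32100 CPM, reached into that range from the naive side, and 6 of 6 crush libraries lay above the naive mean. The log2 fold change was 0.43 ± 0.13 (adjusted p = 0.0148). miR-29b-3p had a crush median of 8497 CPM (6882 to 12972), and it was higher by 0.58 ± 0.20 on the log2 scale (adjusted p = 0.0313). miR-29c-3p had a crush median of 6276 CPM (5835 to 9359) and was higher by 0.54 ± 0.19 (adjusted p = 0.0305).

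For miR-29c-5p the WT groups did not overlap. Its 6 WT crush libraries held 12.2 to 16.7 CPM against 6.88 to 8.50 CPM in the naive libraries, higher by 0.86 ± 0.18 on the log2 scale (adjusted p = 0.00144). Here too 4 of 4 members were called higher, and 35% of all miRNAs were called, 116 higher and 76 lower. The median over the members was 0.56 and over all miRNAs 0.06. With library totals alone the split was 225 higher and 15 lower, with medians of 0.87 and 0.36. Leaving out CX_wt_crush_139, CX_wt_naive_31, CX_wt_naive_67 or CX_wt_naive_96 left 2 members called, as did removing let-7 and miR-98 from the totals, where miR-29b-3p stood at 0.53 (adjusted p = 0.0679) and miR-29c-3p at 0.49 (0.0613). With relative log expression scaling edgeR did not call miR-29b-3p (0.53, adjusted p = 0.0506).

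The genotype difference in naive cortex and the crush difference in WT cortex share the same 5 WT naive libraries, so they are not separate observations of a low family level. The other cortex comparisons, which do not use those libraries, held 0 called members. Between genotypes after crush the log2 fold changes were -0.01, 0.02, -0.02 and -0.19 for miR-29a-3p, miR-29b-3p, miR-29c-3p and miR-29c-5p, with 0% of miRNAs called by edgeR and by DESeq2 and 43 miRNAs and 0 members at an unadjusted p below 0.05. Between crush and naive Thap1+/- cortex they were -0.01, -0.00, -0.04 and -0.21, with 0.729% of miRNAs called, and without CX_DYT6KO_naive_18 1 member and 20 of all miRNAs in place of 4 were called there. The signs of several of these values near 0 changed with the scaling. In Thap1+/- crush cortex miR-29a-3p had a median of 32865 CPM (27942 to 38601), miR-29b-3p of 9107 CPM (7195 to 11318) and miR-29c-3p of 6413 CPM (4906 to 8014). Of the 4 cortex groups, WT naive had the lowest median of every member.

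Tested against each other, the cortex crush effects in Thap1+/- and WT mice differed for 1 member, miR-29c-5p, at -1.07 ± 0.25 on the log2 scale (adjusted p = 0.0130). The guide arms had values of -0.44 ± 0.18 for miR-29a-3p (adjusted p = 0.0884), -0.59 ± 0.28 for miR-29b-3p (0.146) and -0.58 ± 0.26 for miR-29c-3p (0.115). Of all miRNAs 13.5% were called in this test, 31 higher and 43 lower, or 10 and 156 with library totals alone, where the median over all miRNAs was -0.35. Without CX_DYT6KO_naive_18 4 of 4 members were called, and likewise when only library totals were used for scaling or when CX_DYT6KO_naive_16 and CX_DYT6KO_naive_18 were both left out. Without CX_wt_naive_118 2 members were called. Of all miRNAs 43 to 49 in place of 74 were called without CX_DYT6KO_crush_86, CX_DYT6KO_naive_63 or CX_DYT6KO_naive_76, 113 without CX_DYT6KO_naive_16 and 182 without CX_DYT6KO_naive_18.

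**Figure D2:**
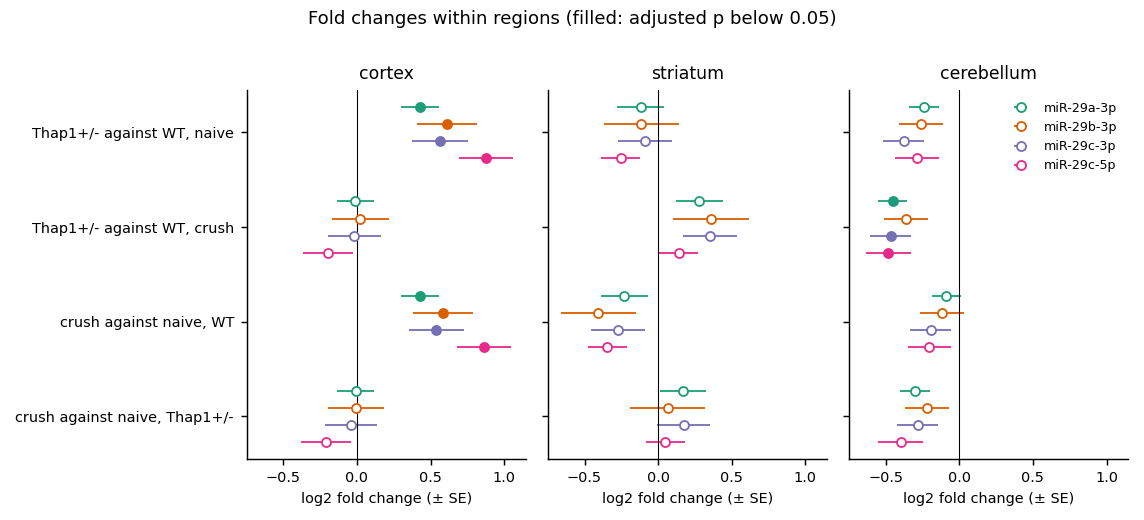
Log2 fold change of each member with its standard error in the 4 comparisons of each region, with filled points for adjusted p below 0.05. The called points are the 8 of naive cortex between genotypes and of WT cortex after crush, and 3 of cerebellum between genotypes after crush.

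The WT naive cortex libraries also differed from the other cortex groups in their make-up. Let-7 and miR-98 took 55.2% of their counts, against 45.9% in WT crush, 48.7% in Thap1+/- naive and 48.2% in Thap1+/- crush cortex, while the family took 3.16%, 5.42%, 5.13% and 5.03%. CX_DYT6KO_naive_18, the Thap1+/- library with WT-like family levels, had a let-7 share of 56.1% and a family share of 2.80%. CX_wt_naive_118, the WT naive library with the highest miR-29a-3p, had 51.5% and 4.097%. CX_wt_crush_139, the highest of its group, had 41.4% and 6.90%. Removing let-7 and miR-98 from the totals left the log2 fold change of miR-29a-3p at 0.42 between naive genotypes and at 0.38 between WT treatments, with miR-29b-3p and miR-29c-3p no longer called in either, as given above. TMM scaling was recomputed after the removal, so these values do not show the part of the let-7 share in the results. That part was not tested.

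**Figure D3:**
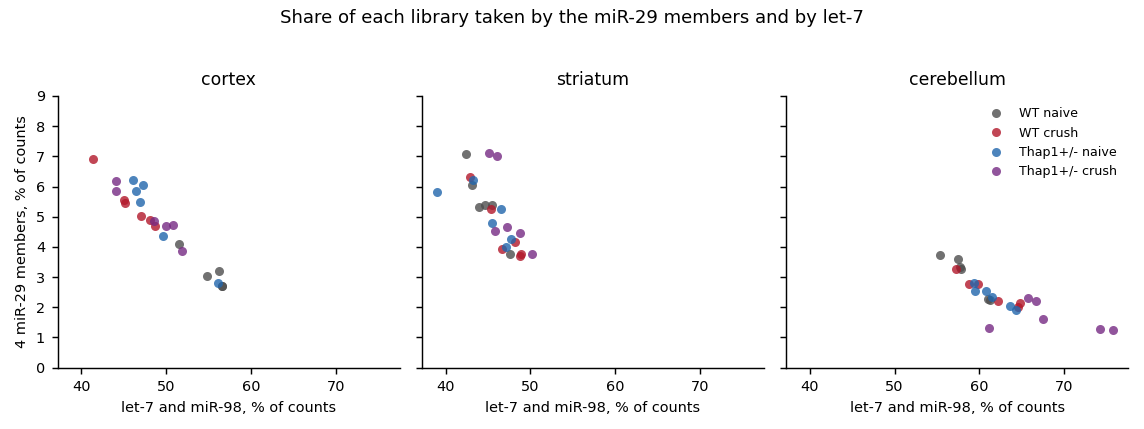
Share of the 4 members in all miRNA counts against the share of let-7 and miR-98, both in percent. There is 1 panel per region and 1 point per library, with genotype and treatment shown by colour. Both shares come from the same total, and the 5 cortex libraries with the most let-7 have the 5 smallest family shares of that region. The 3 cerebellum libraries with the most let-7 are among the 4 with the smallest family shares there.

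Base content moved with these comparisons too. The guide arms hold 59.1% to 65.2% A and U, against a median of 52.2% over the miRNAs of cortex with a sequence. miR-29c-5p, with the largest fold changes of the members (0.88 and 0.86), holds 50%, below that median. Across 469 such miRNAs, which share libraries and are not independent, Spearman's rho between A and U content and log2 fold change was 0.282 for genotype in naive cortex and 0.231 for crush in WT cortex. The richest tercile in A and U had a median log2 fold change of 0.16 in the first comparison and 0.24 in the second, and the poorest tercile -0.10 and -0.06. Its part in the family's values was not tested.

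The astrocyte-enriched miRNAs outside the family, which are listed as markers because miR-29 is itself enriched in astrocytes, mostly did not move with it. Of 4 rows, 0 were higher and 1 lower between naive genotypes in cortex (miR-26b-5p, -0.26), and 1 was higher (miR-23a-3p/23b-3p, 0.33) and 2 lower (miR-26a-5p, -0.31, and miR-26b-5p, -0.39) after crush in WT cortex. Their summed level was 41935 to 45714 CPM in WT naive cortex, 29967 to 37181 CPM in WT crush, 36527 to 44164 CPM in Thap1+/- naive and 31428 to 41806 CPM in Thap1+/- crush cortex. None of these 4 rows was at 0 in any library.

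Markers of microglia and blood cells moved in part with the family. Between naive genotypes 3 of 5 were higher in Thap1+/- cortex (miR-142a-3p, 0.53, miR-142a-5p, 0.48, and miR-146a-5p, 0.44) and 1 was lower (miR-155-5p, -0.47). After crush in WT cortex 2 were higher (miR-142a-5p, 0.55, and miR-146a-5p, 0.65) and 1 lower (miR-155-5p, -0.56). The sum of the list ran from 191 to 245 CPM in WT naive, from 251 to 405 CPM in WT crush, from 204 to 321 CPM in Thap1+/- naive and from 230 to 338 CPM in Thap1+/- crush cortex, and none of its rows was at 0 in a cortex library. Of 5 neuron markers miR-218-5p was higher in both comparisons (0.40 and 0.45) and 0 were lower, with sums that overlapped between all groups. Of 4 vessel markers miR-126a-3p was lower in both (-0.25 and -0.38), and miR-145a-5p was higher after crush (0.83). Of 3 oligodendrocyte markers 1 was called, miR-219a-5p after crush (3.46), which was at 0 in 7 of 23 cortex libraries and never above 30 counts. Neither red cell marker was called, and 0 of the 3 testable choroid plexus markers were. The part of these cell types in the family's values was not tested.

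In striatum none of the members was called in any comparison. miR-29a-3p had medians of 35083 CPM (27104 to 45293) in WT naive, 28106 CPM (25921 to 40304) in WT crush, 33855 CPM (27010 to 40675) in Thap1+/- naive and 32447 CPM (26307 to 56846) in Thap1+/- crush libraries. All 4 groups overlapped. The log2 fold changes of the 4 members lay between -0.26 and -0.09 for genotype in naive mice, between 0.14 and 0.36 for genotype after crush, between -0.41 and -0.23 for crush in WT mice and between 0.05 and 0.17 for crush in Thap1+/- mice. By edgeR 0%, 0%, 0.174% and 0% of miRNAs were called in these comparisons and 0% in the test of the difference between crush effects. DESeq2 called 0, 2, 3, 13 and 0 miRNAs and no member. At an unadjusted p below 0.05 edgeR had 25, 33, 33, 47 and 21 miRNAs, among them 0, 0, 1, 0 and 1 members.

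In striatum the SD of CPM of each guide arm was largest in the Thap1+/- crush group. STR_DYT6KO_crush_86 held the most miR-29a-3p of all striatal libraries, 56846 CPM, while its miR-29b-3p stood at 7229 CPM. STR_DYT6KO_crush_8 held miR-29b-3p at 23271 CPM, where the other 5 libraries of its group held 6806 to 9782 CPM. The 5p arms that mark the 2 miR-29b hairpins were not raised in that library, with miR-29b-1-5p at 1.11 CPM (10 counts) and miR-29b-2-5p at 7.24 CPM, the lowest values of the group. Without STR_DYT6KO_crush_8 the log2 fold change of miR-29b-3p turned from 0.36 to -0.06 for genotype after crush and from 0.06 to -0.34 for crush in Thap1+/- mice, and neither was called.

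In cerebellum 3 of 4 members were lower in Thap1+/- than in WT mice after crush. The 6 WT crush libraries held miR-29a-3p at 15568 to 18969 CPM, and the 6 Thap1+/- crush libraries at 10900, 11959, 12667, 13059, 14434 and 15070 CPM. The groups did not overlap, and the log2 fold change was -0.45 ± 0.10 (adjusted p = 0.00679). miR-29c-3p had medians of 4053 CPM (3415 to 4411) in WT and 2665 CPM (2019 to 3752) in Thap1+/- crush libraries, with a log2 difference of -0.47 ± 0.14 (adjusted p = 0.0320).

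miR-29c-5p had medians of 7.59 CPM (6.22 to 8.38) in WT and 4.51 CPM (4.12 to 7.33) in Thap1+/- crush cerebellum, with a log2 difference of -0.48 ± 0.15 (adjusted p = 0.0401). miR-29b-3p had medians of 3191 CPM (2720 to 4640) and 2467 CPM (1967 to 3614), and its log2 fold change of -0.36 ± 0.15 was not called (adjusted p = 0.115). Below the WT crush mean lay 6 of 6 Thap1+/- libraries for each member except miR-29b-3p, for which 5 of 6 did. In all, 3 of 4 members were called lower, with 13.4% of miRNAs called, 24 higher and 50 lower. The median was -0.46 over the members and 0.01 over all miRNAs. The split of calls was 26 higher and 26 lower with relative log expression scaling, 23 and 26 without let-7 and miR-98, and 3 and 35 with library totals alone, where the medians were -0.61 over the members and -0.18 over all miRNAs.

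miR-29a-3p was the member whose call changed least between settings. It was the only member called with relative log expression scaling and without let-7 and miR-98, where the log2 fold changes were -0.43 and -0.42. With the 2 crush groups fitted alone 0 of 4 members and 6 of all miRNAs were called (adjusted p = 0.0695 for miR-29a-3p), and DESeq2 called miR-29a-3p and miR-29c-3p. With library totals alone miR-29b-3p was called (-0.59, adjusted p = 0.0379), while miR-29c-3p (0.0738) and miR-29c-5p (0.0847) were not. Leaving out CB_DYT6KO_crush_46, CB_DYT6KO_crush_47, CB_DYT6KO_crush_8, CB_DYT6KO_crush_86, CB_wt_crush_139, CB_wt_crush_2 or CB_wt_crush_3 left 1 member called. Of all miRNAs 21 in place of 74 were called without CB_DYT6KO_crush_47 or without CB_DYT6KO_crush_86, 32 without CB_wt_crush_3, 38 without CB_wt_crush_2 and 43 without CB_wt_crush_11.

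The other cerebellar comparisons held 0 called members. Genotype in naive mice gave log2 fold changes between -0.38 and -0.24, crush in WT mice between -0.20 and -0.09, crush in Thap1+/- mice between -0.40 and -0.22, and the difference between crush effects between -0.21 and -0.09. Of all miRNAs 0%, 0%, 5.25% and 0% were called in these 4 comparisons by edgeR, and DESeq2 called 0, 0, 67 and 1 miRNAs and no member. At an unadjusted p below 0.05 edgeR had 2, 0, 2 and 0 members, and in the comparisons with no call 50, 44 and 57 miRNAs. Leaving out CB_DYT6KO_crush_117 or CB_DYT6KO_crush_133 brought 2 members past the threshold for crush in Thap1+/- mice, where the calls over all miRNAs went from 29 to 76 and 75. All 4 values lay below 0 in each of the 4 comparisons, which share libraries, so their signs are not separate observations. The median level of miR-29a-3p was 19247 CPM in WT naive, 18730 CPM in WT crush, 16231 CPM in Thap1+/- naive and 12863 CPM in Thap1+/- crush cerebellum.

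Let-7 and the family stood in opposite order over the cerebellar groups. Let-7 and miR-98 took 58.4% of counts in WT naive, 61.2% in WT crush, 61.5% in Thap1+/- naive and 68.5% in Thap1+/- crush cerebellum, and the family 3.08%, 2.53%, 2.36% and 1.65%. Spearman's rho between A and U content and log2 fold change was -0.282 over 470 miRNAs for genotype after crush. Of the marker lists, 2 of 5 neuron markers (miR-9-5p, -0.44, and miR-218-5p, -0.42) and 2 of 4 vessel markers (miR-126a-5p, -0.41, and miR-145a-5p, -0.65) were lower in that comparison and none was higher. The neuron sum ran from 59499 to 80067 CPM in WT crush and from 52872 to 102370 CPM in Thap1+/- crush cerebellum. The astrocyte-enriched sum ran from 44991 to 69985 CPM and from 36683 to 101172 CPM, with 0 of 4 rows called. The part of these values in the family's difference was not tested.

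The 5p arms of the other hairpins gave no called difference within a region. In WT naive and WT crush cortex miR-29b-2-5p, from the hairpin next to Mir29c, stood at 12.8 ± 1.15 CPM (n = 5) and 14.6 ± 1.96 CPM (n = 6), and miR-29b-1-5p at 4.04 ± 0.893 and 4.53 ± 0.408 CPM. miR-29a-5p stood at 7.44 ± 1.58 CPM in WT naive and 9.67 ± 1.40 CPM in WT crush cortex. The lowest adjusted p of these 3 arms in any within-region test was 0.0503, for miR-29a-5p in the difference between crush effects in cortex. Low counts limit what these arms can show, with as few as 10 counts per library in some groups.

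The authors' deposited table held its own fold changes for these comparisons. For genotype in naive cortex it listed log2 fold changes of 0.37 for miR-29a-3p (adjusted p = 0.0172), 0.47 for miR-29b-3p (0.0292), 0.45 for miR-29c-3p (0.0269) and 0.71 for miR-29c-5p (0.000399). For crush in WT cortex the authors' deposited table listed 0.34 (0.0237), 0.42 (0.0494), 0.40 (0.0468) and 0.67 (0.000249). For genotype after crush in cerebellum the authors' deposited table listed -0.40 (0.00157), -0.29 (0.112), -0.39 (0.0240) and -0.37 (0.0660), so there it passed miR-29a-3p and miR-29c-3p and not miR-29c-5p.

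Ratios between members within a library do not depend on how that library was scaled. The 4 log2 ratios were compared in 3 regions and 4 contrasts with exact two-sided permutation tests, for which the smallest p is 0.00216, and the 48 p-values were adjusted together. None of the 48 was called, and 2 had an unadjusted p below 0.05, both of miR-29a-3p to miR-29c-3p in cerebellum. That ratio was higher by 0.14 in naive Thap1+/- than in naive WT mice (exact p = 0.0325, adjusted 0.779) and by 0.10 after crush in WT mice (exact p = 0.0238, adjusted 0.779). The members thus changed by amounts that could not be told apart at this number of libraries. The pair that differs by 1 base varied least. Its log2 ratio had a pooled within-group SD of 0.118 in cortex, 0.0914 in striatum and 0.108 in cerebellum, against 0.211, 0.364 and 0.259 for miR-29b-3p to miR-29a-3p and 0.324, 0.244 and 0.165 for miR-29c-3p to miR-29c-5p.

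**Figure D4:**
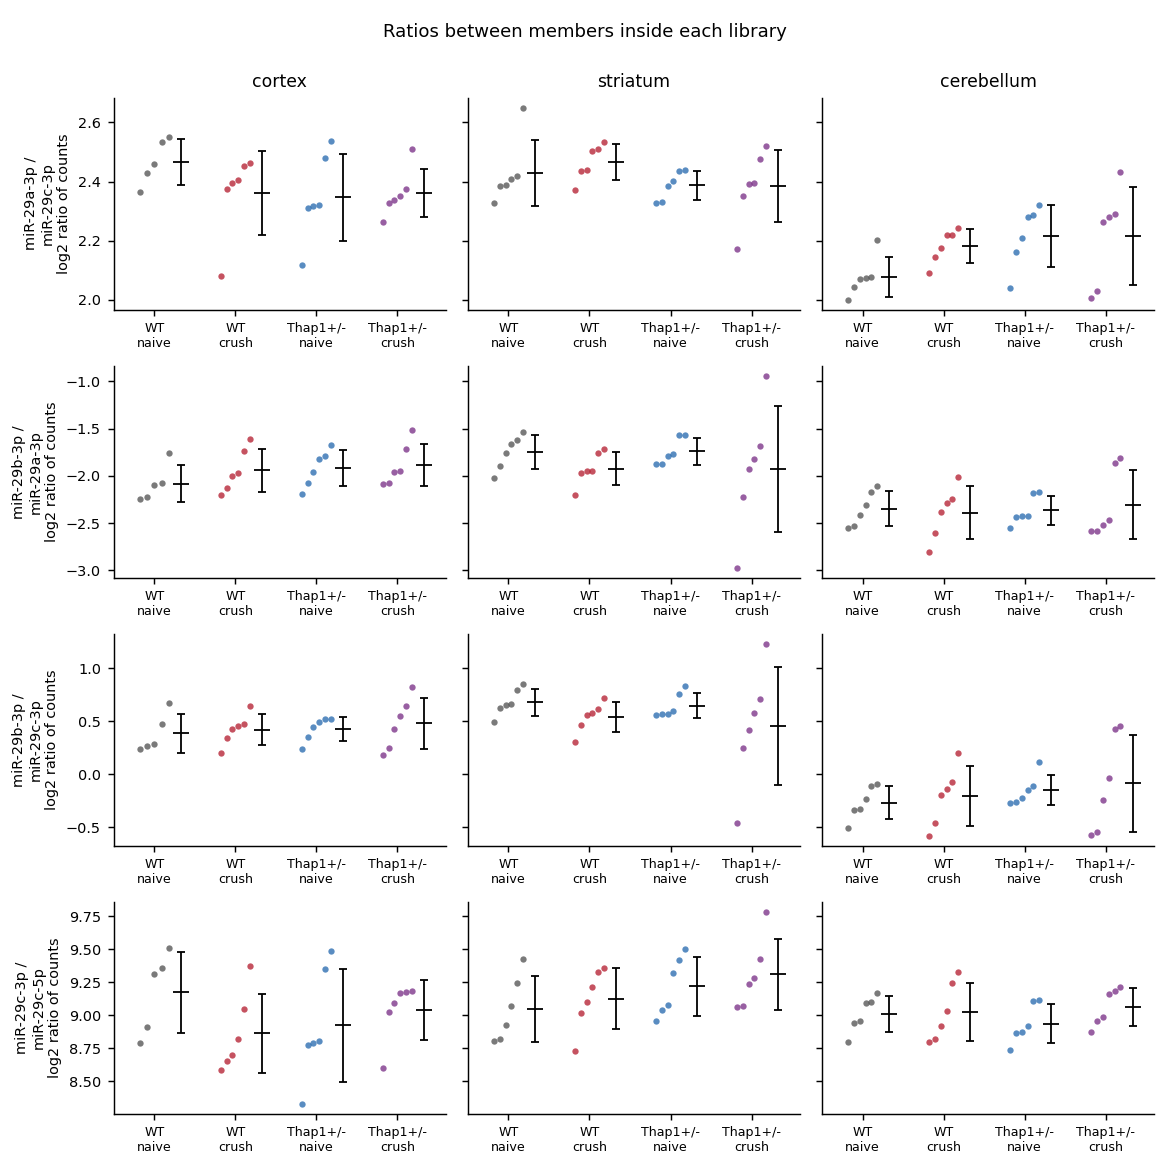
Ratios between members within each library on a log2 axis, by region and group, with 1 point per library, ordered by ratio, and the group mean with its SD. Groups of a region overlap for every ratio, and the mean of miR-29b-3p to miR-29c-3p is lower in cerebellum than in the other regions in each condition, with overlap in Thap1+/- crush and, against cortex, in WT crush.

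Regions were compared within each genotype and treatment, with cortex and striatum RNA prepared with a micro kit and cerebellum RNA with a mini kit of the same supplier. The kit and the cerebellum cannot be told apart. The tests treat libraries as independent, although tissue of the same mouse may be among those compared. With the library number that the regions share as a block, no call of a member changed. A large part of all miRNAs differed between regions, so calls of members there are common.

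Cerebellum was called below cortex for all 4 members in 3 of the 4 conditions, narrowly for miR-29c-3p in WT crush mice. In WT crush mice the log2 fold changes were -0.47 ± 0.10 for miR-29a-3p, -0.93 ± 0.18 for miR-29b-3p, -0.31 ± 0.13 for miR-29c-3p and -0.45 ± 0.12 for miR-29c-5p (adjusted p = 0.000270, 0.000108, 0.0491 and 0.00172). The call of miR-29c-3p in WT crush mice was lost with relative log expression scaling (adjusted p = 0.106), once let-7 and miR-98 were removed (0.0536), by DESeq2 (0.128) and with 8 of 12 libraries left out in turn, most of all CX_wt_crush_139 (-0.19, adjusted p = 0.165). In Thap1+/- naive mice they were -0.65, -1.13, -0.54 and -0.58, and in Thap1+/- crush mice -0.88, -1.28, -0.71 and -0.70, with adjusted p no higher than 0.0151. The share of all miRNAs called was 69.5%, 66.2% and 60.9% in these conditions. In WT naive mice, where 68.6% were called, the order differed. miR-29a-3p and miR-29b-3p were not called (0.08 ± 0.14 and -0.19 ± 0.19), and miR-29c-3p and miR-29c-5p were higher in cerebellum by 0.46 ± 0.18 and 0.64 ± 0.14 (adjusted p = 0.0270 and 0.000549).

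Against striatum, cerebellum was lower for miR-29b-3p in all 4 conditions, by -0.94 in WT naive, -0.63 in WT crush, -1.04 in Thap1+/- naive and -1.33 in Thap1+/- crush mice. miR-29a-3p was lower in WT naive (-0.33), Thap1+/- naive (-0.40) and Thap1+/- crush mice (-0.86), and miR-29c-3p in Thap1+/- crush mice (-0.67). The number of members called was therefore 2, 1, 2 and 3, with 68.4%, 69.9%, 65.1% and 58.5% of all miRNAs called.

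Striatum and cortex differed in a direction that changed with the condition. In WT naive mice all 4 members were higher in striatum, by 0.41 ± 0.14, 0.75 ± 0.20, 0.45 ± 0.18 and 0.58 ± 0.14 for miR-29a-3p, miR-29b-3p, miR-29c-3p and miR-29c-5p, with 54.6% of miRNAs called. In WT crush mice miR-29a-3p (-0.30 ± 0.10), miR-29c-3p (-0.42 ± 0.13) and miR-29c-5p (-0.67 ± 0.12) were lower in striatum, with 47.5% of miRNAs called. In Thap1+/- naive mice miR-29c-5p was lower (-0.66 ± 0.20), with 44.5% called. In Thap1+/- crush mice 0 members were called by edgeR or DESeq2 and 0 had an unadjusted p below 0.05, with 34.2% of miRNAs called.

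These counts move with the scaling and with single libraries. Library totals alone brought 4 of 4 members past the threshold between cerebellum and striatum in WT naive, WT crush and Thap1+/- naive mice, and left 1 for striatum against cortex in WT crush, 0 in Thap1+/- naive and 1 for cerebellum against cortex in WT naive mice. Relative log expression scaling and DESeq2 each left 2 for striatum against cortex in WT naive mice. Leaving out CX_wt_naive_31 or CX_wt_naive_67 left 2 members called for striatum against cortex in WT naive mice, and leaving out either of these, CX_wt_naive_96, CB_wt_naive_118, CB_wt_naive_124 or CB_wt_naive_136 left 1 for cerebellum against cortex. Between cerebellum and striatum 1 remained called in WT naive mice without STR_wt_naive_118, STR_wt_naive_124, STR_wt_naive_136, CB_wt_naive_31 or CB_wt_naive_67, and 1 in Thap1+/- naive mice without STR_DYT6KO_naive_48 or STR_DYT6KO_naive_76. In WT crush mice 2 were called between cerebellum and striatum without STR_wt_crush_14, STR_wt_crush_2 or CB_wt_crush_11, and 1 between striatum and cortex without CX_wt_crush_139 or STR_wt_crush_14. Leaving out STR_DYT6KO_crush_8 brought 2 members past the threshold for striatum against cortex in Thap1+/- crush mice, and leaving out CX_DYT6KO_naive_18 brought 3 in Thap1+/- naive mice.

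The composition of the family differed between regions. Between regions 16 of 48 exact permutation tests on the same ratios were called and 23 had an unadjusted p below 0.05. The median ratio of miR-29b-3p to miR-29c-3p in WT naive mice was 1.22 (1.18 to 1.59) in cortex, 1.58 (1.40 to 1.80) in striatum and 0.823 (0.703 to 0.936) in cerebellum. Its mean log2 ratio was lower in cerebellum than in cortex by -0.66, -0.63 and -0.58 in WT naive, WT crush and Thap1+/- naive mice, and lower than in striatum by -0.95, -0.75 and -0.79, each with an adjusted p of at most 0.0148. The cerebellar libraries did not overlap with those of the other regions in 5 of these 6 comparisons, the exception being WT crush cortex.

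The ratio of miR-29b-3p to miR-29a-3p was also lower in cerebellum than in striatum, by -0.60, -0.47 and -0.62 in WT naive, WT crush and Thap1+/- naive mice. Against cortex it was lower by -0.45 in WT crush (adjusted p = 0.0325) and by -0.44 in Thap1+/- naive mice (0.0208). The call in WT crush mice was lost with 8 of 12 libraries left out in turn. The ratio of miR-29a-3p to miR-29c-3p was lower in cerebellum than in cortex by -0.39 in WT naive mice, and lower than in striatum by -0.35, -0.28 and -0.17 in the same 3 conditions. The sixteenth called test was miR-29b-3p to miR-29c-3p in striatum against cortex of Thap1+/- naive mice, at 0.22. No ratio was called in Thap1+/- crush mice, and the ratio of the 2 arms of miR-29c was called in no comparison.

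The 5p arms that mark single miR-29 loci were also compared between regions. miR-29b-3p itself was not called between cerebellum and cortex of WT naive mice (log2 fold change -0.19). miR-29b-2-5p stood at 5.84 ± 0.665 CPM in cerebellum, 12.8 ± 1.15 CPM in cortex and 15.6 ± 0.981 CPM in striatum of WT naive mice, and miR-29b-1-5p at 1.69 ± 0.385, 4.04 ± 0.893 and 4.42 ± 0.603 CPM, on a scale set within each region. Because of that scale, these CPM do not give the fold change between regions. In the fit of the 3 regions together, all 3 other 5p arms, from both chromosomes, were called lower in cerebellum than in cortex in all 4 conditions. Of all miRNAs 68.6%, 69.5%, 66.2% and 60.9% were called there in WT naive, WT crush, Thap1+/- naive and Thap1+/- crush mice. miR-29c-5p was called higher in cerebellum of WT naive mice and lower in the other conditions. The part of each locus in miR-29b-3p was not tested.

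Whether an effect differed between regions was tested in 1 fit over all 12 groups and 655 miRNAs, and no library was left out in turn in these tests. The naive genotype effect was lower in cerebellum than in cortex for 4 of 4 members, by -0.73 ± 0.21, -0.94 ± 0.33, -1.01 ± 0.27 and -1.23 ± 0.25 for miR-29a-3p, miR-29b-3p, miR-29c-3p and miR-29c-5p, with 19.8% of miRNAs called. It was lower in striatum than in cortex for miR-29a-3p (-0.65 ± 0.21, adjusted p = 0.0424) and miR-29c-5p (-1.23 ± 0.24, adjusted p = 0.000879), with 7.63% called. The WT crush effect was lower in striatum than in cortex for 4 of 4 members, by -0.70, -1.02, -0.85 and -1.24, with 22% called. It was lower in cerebellum than in cortex for miR-29a-3p (-0.56), miR-29c-3p (-0.77) and miR-29c-5p (-1.11), with 22.6% called. In the naive genotype effect between cerebellum and cortex, edgeR did not call miR-29b-3p without let-7 and miR-98 (-0.85, adjusted p = 0.0636). In the WT crush effect for that pair it did not call miR-29a-3p with relative log expression scaling (-0.47, adjusted p = 0.0725). All these tests use the 5 WT naive cortex libraries.

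The genotype effect after crush, which does not use those libraries, was lower in cerebellum than in striatum for miR-29a-3p (-0.74 ± 0.20, adjusted p = 0.0331) and miR-29c-3p (-0.83 ± 0.26, adjusted p = 0.0461), with 5.8% of miRNAs called. There edgeR did not call miR-29c-3p with library totals alone (adjusted p = 0.0668) or without let-7 and miR-98 (0.0517). The remaining 7 tests held 0 called members, with at most 2 at an unadjusted p below 0.05. In them 0% of miRNAs were called for cerebellum against striatum in the naive genotype effect and in both crush effects, 0% for striatum against cortex and 0.153% for cerebellum against cortex in the genotype effect after crush, and 0.458% and 0.153% for those pairs in the Thap1+/- crush effect.

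Outside the family, the miRNAs whose pattern over the libraries of a region was most like a guide arm were found by the root mean square difference of centred log2 CPM, among miRNAs with a mean of at least 100 CPM. Over 23 cortex libraries the closest to miR-29a-3p were miR-300-3p (0.0772), miR-101a-3p/101b-3p/101c (0.0933) and miR-218-5p (0.111), while miR-29c-3p stood at 0.117 and miR-29b-3p at 0.205 and the median candidate at 0.338. The closest to miR-29b-3p were miR-142a-5p (0.136), miR-153-3p (0.139) and miR-340-5p (0.153), and to miR-29c-3p the miR-101 row (0.123), miR-153-3p (0.129) and miR-300-3p (0.161). The 3 miRNAs nearest to miR-29a-3p were picked by this same distance from 144 candidates. Their smaller values than that of miR-29c-3p therefore give no separate result.

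Over 24 striatal libraries miR-29c-3p was closer to miR-29a-3p (0.0899) than any outside miRNA, of which miR-127-5p (0.118), miR-598-3p (0.162) and miR-376b-3p (0.167) came next. For miR-29c-3p there the closest outside miRNAs were miR-598-3p (0.139), miR-127-5p (0.152) and miR-376b-3p (0.173), and for miR-29b-3p miR-153-3p (0.149), miR-340-5p (0.185) and miR-376a-3p (0.205). Over 24 cerebellar libraries miR-29c-3p was again closest to miR-29a-3p (0.113), followed by miR-341-3p (0.122), miR-300-3p (0.132) and miR-3068-5p (0.143). The closest to miR-29b-3p were miR-376a-3p (0.185), miR-3068-5p (0.202) and miR-341-3p (0.206), and to miR-29c-3p the miR-101 row (0.154), miR-341-3p (0.190) and miR-186-5p (0.196). None of these miRNAs with a RefSeq sequence carries the seed AGCACCA, which follows from its absence in all names outside the family. The distances rest on libraries that share their depth and let-7 share, and are given as a description.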

How the data were processed

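Small RNA libraries were made by the authors from 10 ng RNA with the QIAseq miRNA UDI kit, per the labels' protocols. The deposited values used for tests were whole-number counts per mature miRNA. The deposited tables also held the authors' normalized signal, log2 fold changes, test scores and p-values with adjusted p-values. The submitters' processing notes name featureCounts 1.6.4 and R 4.1.0, while the aligner, the genome build and any use of molecular identifiers are not stated there. The 284 per-sample columns of normalized values were not used.

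Counts were joined over 12 tables. edgeR 4.0.16 (with R 4.3.3 and limma 3.58.1) gave the main test, a quasi-likelihood F test with TMM scaling, filterByExpr, and Benjamini-Hochberg adjustment over all miRNAs tested, with calls at 0.05. Each region was fitted with its 4 groups, each condition with its 3 regions, and effect differences with all 12 groups. The standard error is the absolute log2 fold change divided by the square root of F. Ratios used a pseudocount of 0.5 and exact permutation tests. DESeq2 1.42.0, other scalings, filters and left-out libraries were alternatives, and a block on the library number in tests between regions was added after the data were seen. Python 3.11.15, pandas 2.3.3, numpy 2.4.6 and matplotlib 3.10.9 made the tables and figures. The edgeR steps were run on simulated counts with a fixed dispersion and no let-7 shift set between libraries. That run checks the steps and not the calls in these data.

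No replicates were identical: the least different pair of a group had a chi-square of 11.9 per degree of freedom. The labels do not tie library numbers to mice, so p-values measure the spread between these libraries. The members and lists were chosen with earlier results of these data known. Named beside the members were the other arms, called list members and the 3 closest patterns per guide arm.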

Additional observations from a re-analysis of the deposited data

Results flagged for a closer look

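Of 96 sets of 5 or 6 libraries tested for a value far from the rest, 6 held one, where chance gives about 1 in 20. CX_wt_crush_139 was far above the other WT crush cortex libraries for miR-29a-3p (39597 CPM, next 33912 CPM) and miR-29c-3p (9359 CPM, next 6451 CPM), and its log2 ratio of miR-29a-3p to miR-29c-3p was far below theirs (2.08, next 2.37). STR_DYT6KO_crush_8 was far above its group for miR-29b-3p (23271 CPM, next 9782 CPM). STR_wt_naive_31 was far above its group in the log2 ratio of miR-29a-3p to miR-29c-3p (2.65, next 2.42). CX_DYT6KO_crush_86 was far below its group in the log2 ratio of miR-29c-3p to miR-29c-5p (8.600, next 9.03).

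Effects that differed between groups by edgeR's test of the difference itself numbered 16. The crush effect in cortex was lower in Thap1+/- than in WT mice for miR-29c-5p by -1.07 (adjusted p = 0.0130). The naive genotype effect was lower in striatum than in cortex for miR-29a-3p (-0.65) and miR-29c-5p (-1.23), and lower in cerebellum than in cortex for miR-29a-3p (-0.73), miR-29b-3p (-0.94), miR-29c-3p (-1.01) and miR-29c-5p (-1.23). The WT crush effect was lower in striatum than in cortex for miR-29a-3p (-0.70), miR-29b-3p (-1.02), miR-29c-3p (-0.85) and miR-29c-5p (-1.24), and lower in cerebellum than in cortex for miR-29a-3p (-0.56), miR-29c-3p (-0.77) and miR-29c-5p (-1.11). These 14 share the WT naive cortex libraries. The genotype effect after crush was lower in cerebellum than in striatum for miR-29a-3p (-0.74) and miR-29c-3p (-0.83).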

How the results depend on the processing

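Within a region no library number recurs between groups, so nothing could be paired there. The same numbers recur in the 3 regions of a condition, and the labels do not say that they mark one mouse. Deviations of same-numbered libraries from their group means, over miRNAs of at least 10 CPM, correlated above 0.1 in 49 of 70 pairs (-0.376 to 0.756), in every pair only in WT naive mice. Of 70 libraries, 32 correlated best with their own number among the 5 or 6 numbers of the condition. A replicate block on that number, added after the data were seen, changed no member's call in the tests between regions, with 4 members still called for striatum against cortex in WT naive mice, and moved the calls over all miRNAs by over 1.5 times in 3 effect differences, from 1 to 2 (genotype after crush, cerebellum and cortex), from 3 to 1 (Thap1+/- crush, striatum and cortex) and from 0 to 1 (Thap1+/- crush, cerebellum and striatum). The ratio tests were not blocked. Alternatives were relative log expression (RLE) scaling, library totals alone, no filter on low counts, a stricter filter (10 CPM in 5 libraries), DESeq2, a fit of only the 2 groups compared, removal of the 10 let-7 and miR-98 rows, each library left out in turn, and cortex without CX_DYT6KO_naive_16 and CX_DYT6KO_naive_18. The stricter filter and the fit of 2 groups were used only within regions. Differences between regions in an effect had only RLE scaling, library totals, removal of let-7 and miR-98 and the block as alternatives. No library was left out in turn there, so their dependence on single libraries is not known. Of 73 single values that were called, with 1038 alternative values, 0 changed sign and 140 were no longer called. The cause of the changes below was not tested.

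The number of members called moved as follows. For naive genotype in cortex it went from 4 to 2 without let-7 and miR-98 and to 0 with only the 2 groups, and to between 1 and 4 with a library left out. For WT crush in cortex it went from 4 to 2 without let-7 and miR-98 and to between 2 and 4 with a library left out. For Thap1+/- crush in cortex it went from 0 to 1 without CX_DYT6KO_naive_16 and CX_DYT6KO_naive_18, and lay between 0 and 1 with a library left out. For the difference between crush effects in cortex it went from 1 to 4 with library totals alone, to 4 without that pair of libraries, and to between 1 and 4 with a library left out. For genotype after crush in cerebellum it went from 3 to 1 with RLE scaling, 1 with no filter, 1 without let-7 and miR-98 and 0 with only the 2 groups, and to between 1 and 3 with a library left out. For Thap1+/- crush in cerebellum it lay between 0 and 2 with a library left out.

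For striatum against cortex it went from 4 to 2 with RLE scaling or DESeq2 in WT naive mice (2 to 4 with a library left out), from 3 to 1 with library totals in WT crush mice (1 to 4), from 1 to 0 with library totals in Thap1+/- naive mice (1 to 3), and lay between 0 and 2 in Thap1+/- crush mice. For cerebellum against cortex in WT naive mice it went from 2 to 1 with library totals (1 to 2 with a library left out). For cerebellum against striatum it went from 2 to 1 with RLE scaling or DESeq2 and to 4 with library totals in WT naive mice (1 to 2 with a library left out), from 1 to 4 with library totals in WT crush mice (1 to 2), and from 2 to 4 with library totals in Thap1+/- naive mice (1 to 2). For differences between regions in an effect it went to 1 for striatum and cortex in the naive genotype effect (RLE scaling, or without let-7 and miR-98), to 1 for cerebellum and striatum in the genotype effect after crush (library totals, or without let-7 and miR-98), and to 1 for both WT crush effects without let-7 and miR-98. The 16 called ratios between regions lay between 15 and 21 with a library left out, and those between conditions stayed at 0. For cerebellum against cortex in WT crush mice, the call of miR-29b-3p to miR-29a-3p was lost with 8 of 12 libraries left out in turn.

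Values that changed sign were all uncalled. For genotype after crush in cortex, miR-29a-3p had 0.0026 with no filter, 0.016 without let-7 and miR-98 and 0.00036 with DESeq2 (-0.051 to 0.040 with a library left out), miR-29b-3p -0.090 with library totals (-0.048 to 0.15), and miR-29c-3p 0.0085 without let-7 and miR-98 (-0.0788 to 0.10). For Thap1+/- crush in cortex, miR-29a-3p had 0.0016 and miR-29b-3p 0.010 with no filter (-0.10 to 0.043 and -0.13 to 0.10 with a library left out), and miR-29c-3p ran from -0.16 to 0.061. In striatum library totals gave -0.036 for miR-29b-3p and -0.032 for miR-29c-5p in the Thap1+/- crush comparison (-0.34 to 0.17 and -0.049 to 0.12 with a library left out), and miR-29b-3p ran from -0.059 to 0.48 for genotype after crush. The difference between crush effects in cerebellum ran from -0.17 to 0.0054 for miR-29b-3p and from -0.18 to 0.018 for miR-29c-3p.

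Calls over all miRNAs moved from 111 to 0 (2 groups) and 225 (without the pair of cortex libraries) for naive genotype in cortex, from 4 to 7 (RLE), 0 (library totals, no filter or 2 groups), 13 (DESeq2) and 25 (without the pair) for Thap1+/- crush in cortex, and from 74 to 166 (library totals), 48 (no filter) and 207 (without the pair) for the difference between crush effects there. In striatum they moved from 0 to 2 (DESeq2) for genotype after crush, from 1 to 3 (DESeq2) or 0 (the other alternatives) for WT crush, and from 0 to 1 (library totals) and 13 (DESeq2) for Thap1+/- crush. In cerebellum they moved from 0 to 5 (2 groups) for naive genotype, from 74 to 38 (library totals), 31 (no filter), 49 (without let-7 and miR-98) and 6 (2 groups) for genotype after crush, and from 29 to 11 (no filter), 18 (without let-7 and miR-98), 67 (DESeq2) and 8 (2 groups) for Thap1+/- crush, or 6 to 76 there with a library left out. For differences between regions they moved from 50 to 24 (RLE) and 21 (without let-7 and miR-98) for striatum and cortex in the naive genotype effect, and from 38 to 18 (library totals) and 24 (without let-7 and miR-98) for cerebellum and striatum in the genotype effect after crush. For cerebellum and cortex they moved from 1 to 0 (RLE) in the genotype effect after crush and from 1 to 0 (RLE), 21 (library totals) and 3 (without let-7 and miR-98) in the Thap1+/- crush effect, where they also moved from 3 to 1 (library totals) for striatum and cortex and from 0 to 1 (without let-7 and miR-98) for cerebellum and striatum. Low counts limit miR-29c-5p, with 27 counts in its poorest library, and the other 5p arms.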
